A study of Danio rerio with 12 samples.

Results

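Transcript levels in zebrafish larvae kept in 100 nM tributyltin chloride (TBT) were compared with those in larvae kept in 30 nM TBT, to show what separated the 2 highest concentrations of the series from each other. The members were chosen by their titles alone: the 3 libraries at 100 nM (replicates 1 to 3) and the 3 at 30 nM (replicates 1 to 3), 6 of the 12 libraries of the series. No control library entered the difference. Control larvae and larvae at 3 nM (3 libraries each) are given where they show where a level stood at the lower end of the series, and they also entered the estimate of the spread between libraries.

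All larvae were wild-type, were exposed through the water from 2 to 5 days post fertilization (dpf) with daily renewal of the solutions, and were collected at 5 dpf as whole eleutheroembryos, the stage after hatching at which yolk is still the main food. Each group, the control included, carried 0.2% (v/v) dimethyl sulfoxide as the solvent. A library held the poly(A) RNA of 10 pooled larvae. Whether the pools of 1 concentration came from separate clutches or vessels is not stated, and the p-values then rest on a spread between pools that may be technical. A pool also averages over its larvae, and differences between larvae within it were not measured.

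TBT is an organotin formerly used in antifouling paints. Its known receptors are the retinoid X receptors (RXR) and peroxisome proliferator-activated receptor gamma, nuclear receptors that switch on genes of lipid storage, and at higher exposure organotins are known to disturb mitochondria and to bind thiol groups of proteins. Cells under such stress commonly use several defined programmes. The integrated stress response slows translation while the ATF4 and ATF5 factors raise genes of amino acid supply, the heat shock response raises chaperones that refold proteins, and the NRF2 pathway raises genes of glutathione synthesis. Sterol synthesis is regulated as a block through the transcription factor SREBP2.

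The sums of the normalised counts were 35772586, 29687308 and 31324224 in the 100 nM libraries, against 31308532, 28277738 and 29321146 in the 30 nM libraries. Across genes, libraries of the same group correlated on the log2 scale at 0.974 to 0.985 at 100 nM and at 0.983 to 0.985 at 30 nM, as a description. Replicate 2 at 100 nM was the library least like the others of its group. Its mean level over 70 neuronal genes stood 0.30 above the 30 nM mean on the log2 scale, where replicates 1 and 3 stood at −0.60 and −0.33. For these genes replicate 2 was the highest library in the other groups too, at 0.83 in the control, 0.19 at 3 nM and 0.20 at 30 nM. The raw depth could be read from the steps between low values in 1 library of each group, and size factors of 0.899 for 100 nM replicate 3 and 0.895 for 30 nM replicate 1 put these 2 at nearly equal depth. Of 60 defining markers of 16 tissues, from photoreceptors to exocrine pancreas, 60 were above 0 in all 6 libraries.

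Of 22404 genes tested, 2069 differed between 100 and 30 nM at an adjusted p below 0.05 (9.23% of the genes tested; limma on log2(normalised count + 1), Benjamini-Hochberg adjustment over all genes tested). Of these, 1185 were higher at 100 nM (5.29%) and 884 lower (3.95%). The median of the absolute log2 difference among them was 0.73, and 290 genes were more than 2-fold higher and 270 more than 2-fold lower. The 3 libraries of each group did not overlap in 6064 of the 22404 tested genes and in 2066 of the 2069 called genes. For a called gene, groups that lay apart therefore add almost nothing to the call. Over all tested genes the median difference was −0.01. After every library had been scaled to the same total that median was −0.13, and the split turned to 643 higher and 1164 lower, 35.6% higher in place of 57.3%. The count of 2069 fell to 1124, 1170 and 1041 without 30 nM replicates 1, 2 and 3, to 1316 without 100 nM replicate 1, and to 1179 when the 6 compared libraries alone gave the spread.

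**Figure D1:**
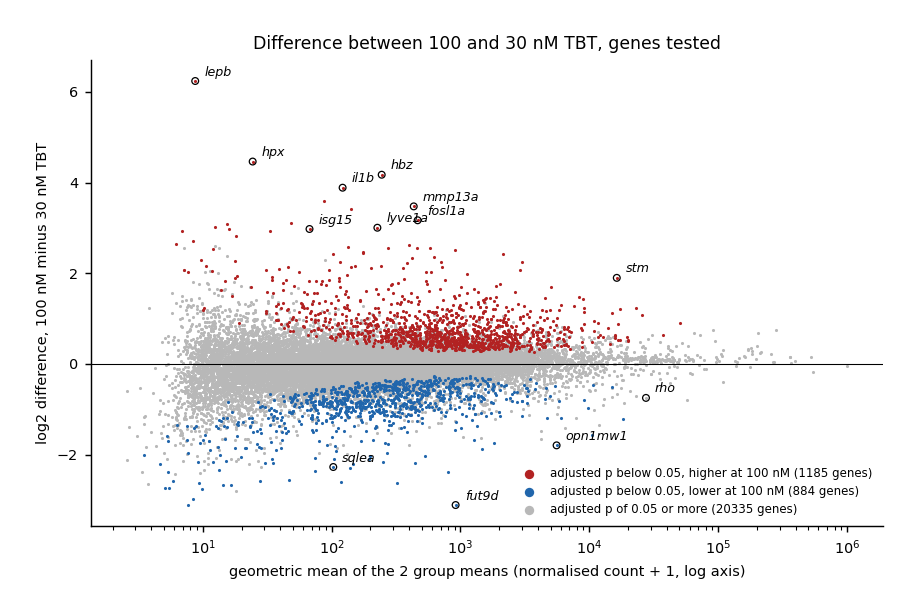
Each point is a tested gene. The x axis gives the geometric mean of the means at 100 and 30 nM (normalised count + 1, log axis) and the y axis the log2 difference, 100 nM minus 30 nM. The 1185 genes in red were higher and the 884 in blue lower at 100 nM, and the most negative labelled gene is fut9d at −3.11; lepb, at the top, was listed at 0 in all 3 libraries at 30 nM, so its height on the axis depends on the added 1.

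Called genes were then sorted into 46 lists of pathways and tissues (1902 symbols, 1750 different genes tested), and the share of each list was read against 5.29% higher and 3.95% lower over all genes. The lists of mitosis (46 of 48 lower), DNA replication (39 of 55 lower) and cholesterol biosynthesis (17 of 26 lower) had the largest shares of lower members. The integrated stress response had the largest share of higher members (27 of 38), followed by neutrophil genes (9 of 22), inflammation (17 of 46) and matrix metalloproteinases (7 of 19), lists that share members. No member was called among 70 neuronal genes, 76 cytosolic ribosomal proteins and 43 proteasome subunits in this limma fit, where 2, 0 and 12 of them had an unadjusted p below 0.05. The lists do not exhaust the data, since 1705 called genes were in none of them.

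**Figure D2:**
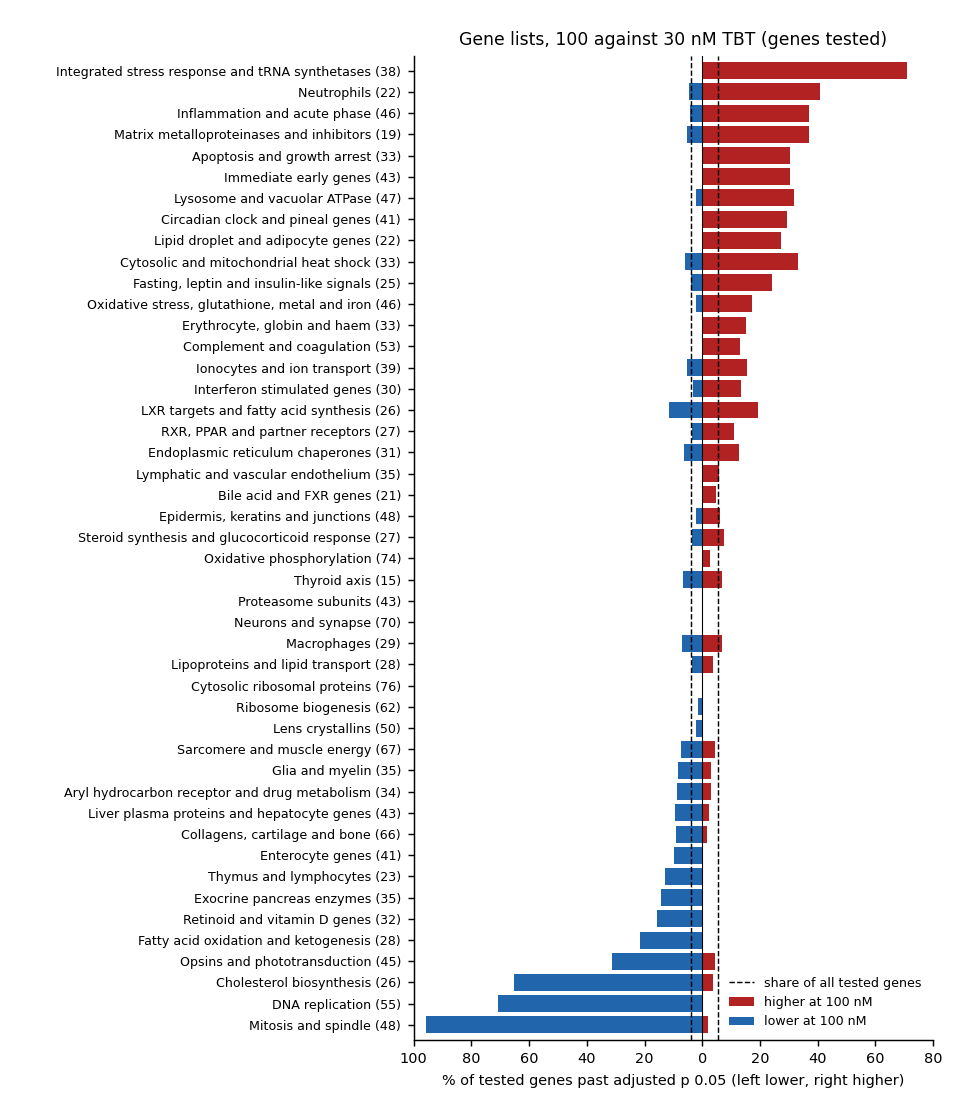
Bars give the percentage of each list's tested genes (number in brackets) that passed the adjusted p of 0.05, higher at 100 nM to the right and lower to the left. The dashed lines mark the shares over all tested genes, 5.29% higher and 3.95% lower; mitosis and DNA replication reach furthest to the left and the integrated stress response furthest to the right.

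Genes of cell division were lower at 100 than at 30 nM almost without exception. Of 48 tested genes of mitosis and the spindle, 46 fell and 1 rose, with a median log2 difference of −1.0. The list's mean level stood at −1.01, −1.01 and −0.86 in the 3 libraries at 100 nM, relative to the mean at 30 nM, whose own libraries lay between −0.05 and 0.04. tpx2, which encodes a spindle assembly factor, had 313, 311 and 367 normalised counts at 100 nM, against 784, 729 and 742 at 30 nM (log2 difference −1.19 ± 0.10 SE, adjusted p = 0.000101). plk1, a mitotic kinase gene, had 399, 391 and 376 at 100 nM, against 737, 750 and 784 at 30 nM (−0.96 ± 0.08, adjusted p = 0.000101). cdc20, which encodes an activator of the anaphase-promoting complex, had 135, 129 and 146 at 100 nM, against 299, 279 and 336 at 30 nM (−1.15 ± 0.10, adjusted p = 0.000157). In these 3 genes all libraries at 100 nM lay below all libraries at 30 nM. In the control and at 3 nM the means were 859 and 793 for tpx2 and 806 and 858 for plk1, close to those at 30 nM.

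The regulators and markers of the same list, named after their values were seen, moved alike. foxm1, the transcription factor gene that drives mitotic genes, had 52, 83 and 88 normalised counts at 100 nM, against 200, 198 and 211 at 30 nM (−1.47 ± 0.19, adjusted p = 0.000819), the largest fall in the list. mki67, the gene of the proliferation antigen Ki-67, had 796, 1137 and 1043 at 100 nM, against 1973, 2294 and 2004 at 30 nM (−1.09 ± 0.16, adjusted p = 0.00209). The cyclin-dependent kinase gene cdk1, its partner ccnb1, the topoisomerase gene top2a and the kinase gene aurkb had differences from −1.13 to −1.06. The member that rose was a second gene listed as ube2c (ENSDARG00000101618, 0.39 ± 0.10, adjusted p = 0.0391), while the other gene of that name (ENSDARG00000035770) fell by 1.06. The rise of the second gene missed the threshold with equal totals (adjusted p = 0.294) and in 10 of the 12 fits that left out a library, and the 2 may share reads. Between 40 and 47 members were called lower in those 12 fits, and 46 with equal totals. In whole larvae, fewer dividing cells and less RNA per cell cannot be told apart, here and in every tissue below.

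Replication genes of S phase were lower too. Of 55 tested, 39 fell and 0 rose, with a median of −0.72; 54 of the 55 differences were negative. rrm1, which encodes the large subunit of ribonucleotide reductase, had 1243, 1062 and 1237 normalised counts at 100 nM, against 2596, 2409 and 2539 at 30 nM (−1.09 ± 0.09, adjusted p = 0.000101). chaf1a, a subunit gene of the chromatin assembly factor, had 876, 854 and 891 at 100 nM, against 1525, 1465 and 1476 at 30 nM (−0.77 ± 0.08, adjusted p = 0.00022). cdc45, part of the replicative helicase, had 89, 94 and 82 at 100 nM, against 193, 200 and 203 at 30 nM (−1.16 ± 0.13, adjusted p = 0.000327). The groups did not overlap in any of the 3. Named after their values were seen, mcm10 (−1.25) and mcm2 (−0.91), both of the helicase machinery, passed as well, whereas the licensing factor gene cdt1 had 176, 215 and 226 at 100 nM, against 214, 181 and 201 at 30 nM (0.04 ± 0.14, adjusted p = 0.899). cdt1 was the member with a positive difference, and its groups overlapped. Neither gene listed as rrm2 passed (adjusted p = 0.0868 for ENSDARG00000020711 and 0.24 for ENSDARG00000078069). The call of pcna (−0.71, adjusted p = 0.0463) ended without any of the 30 nM libraries (0.0559 to 0.156), among other settings. The list had 28 to 40 lower members in the fits that left out a library and 44 with equal totals.

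Sterol synthesis genes formed the third block of falls. Of 26 tested genes of cholesterol biosynthesis, 17 fell and 1 rose, with a median of −0.79, and the mean level of the list was −0.81, −0.83 and −0.81 in the 3 libraries at 100 nM. sqlea (ENSDARG00000079946), the gene of squalene epoxidase, had 55, 33 and 51 normalised counts at 100 nM, against 220, 224 and 225 at 30 nM (−2.28 ± 0.28, adjusted p = 0.000597). lss, the gene of lanosterol synthase, which follows it in the pathway, had 46, 48 and 53 at 100 nM, against 184, 232 and 225 at 30 nM (−2.10 ± 0.27, adjusted p = 0.000844). cyp51, which demethylates lanosterol, had 726, 530 and 612 at 100 nM, against 1691, 1523 and 1715 at 30 nM (−1.41 ± 0.17, adjusted p = 0.000683). The highest library at 100 nM stayed far under the lowest at 30 nM in all 3 genes. For lss the level at 30 nM was in turn above those of the solvent control and 3 nM larvae, with means of 144 and 146.

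An early step of the pathway was lower as well. hmgcs1, which makes HMG-CoA, had 709, 1077 and 859 normalised counts at 100 nM, against 1571, 1935 and 2138 at 30 nM (−1.10 ± 0.25, adjusted p = 0.0203); it and the next genes were named after their values were seen. The call of hmgcs1 ended without 30 nM replicate 2 or 3 (adjusted p = 0.0688 and 0.0855) or 100 nM replicate 1 or 3 (0.0767 and 0.0588). HMG-CoA reductase, the rate-limiting enzyme, is encoded by 2 genes, neither of which was called lower. hmgcrb had 980, 1013 and 933 at 100 nM, against 683, 687 and 762 at 30 nM (0.46 ± 0.08, adjusted p = 0.00544), a call that ended with equal totals (adjusted p = 0.121). For hmgcra the values were 508, 499 and 660 at 100 nM, against 575, 856 and 761 at 30 nM (−0.39 ± 0.34, adjusted p = 0.574), with overlapping groups. srebf2, the gene of the factor SREBP2, had 2792, 2644 and 2674 at 100 nM, against 3071, 2971 and 3230 at 30 nM (−0.19 ± 0.09, adjusted p = 0.209). Without 30 nM replicate 2 or replicate 3 the list had 9 lower members, and without 100 nM replicate 1 it had 11; with equal totals it had 16 lower and 0 higher.

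**Figure D3:**
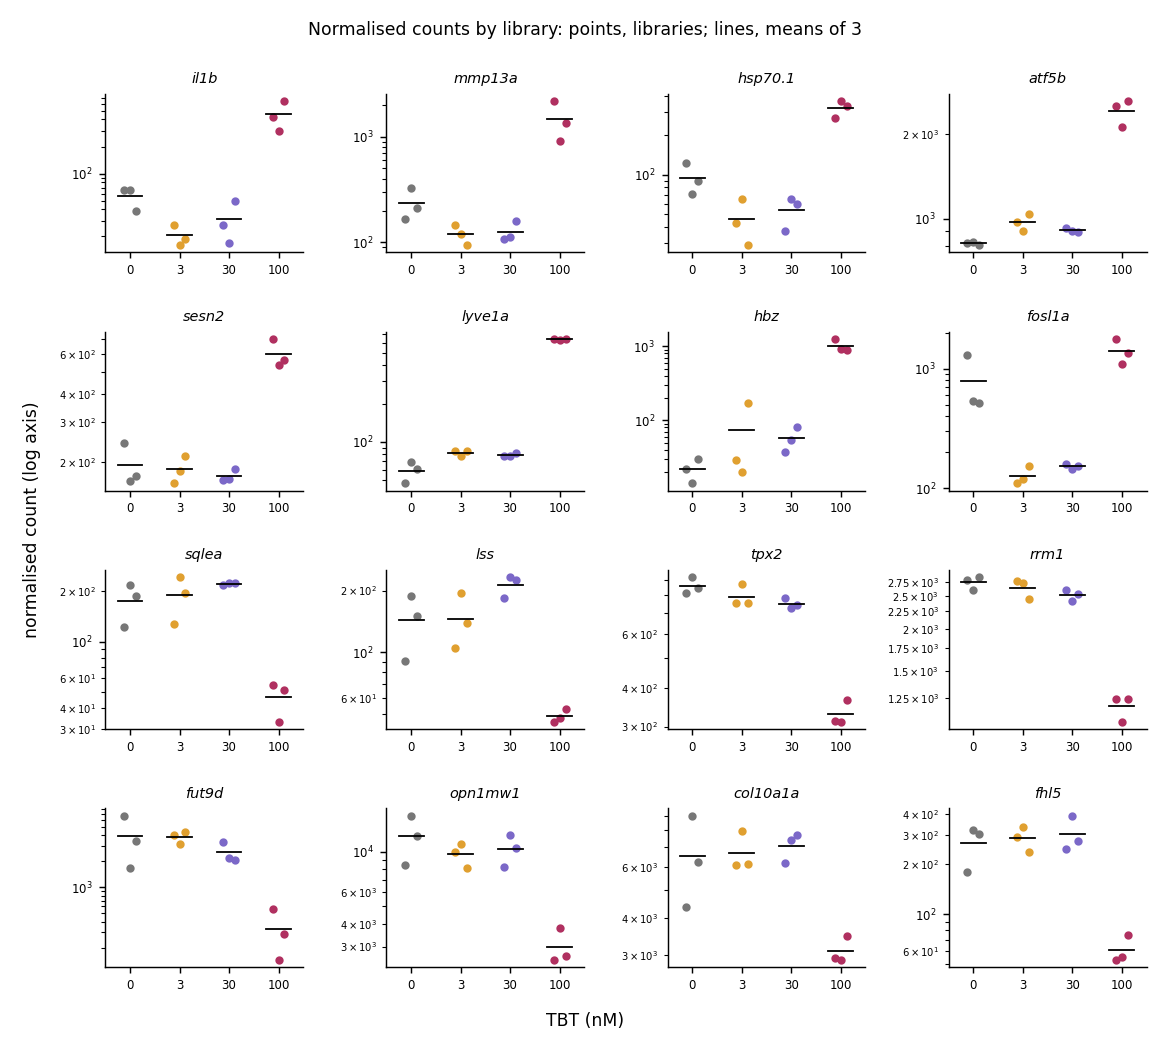
Normalised counts (log axis) of 16 genes against the TBT concentration (0, 3, 30 and 100 nM); points are libraries and lines the means of 3. In all 16 genes the libraries at 100 nM do not overlap with those at 30 nM, as was true of 2066 of the 2069 called genes. At 100 nM lyve1a lies between 637 and 644 and sqlea between 33 and 55.

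Amino acid and translation stress genes gave the largest share of rises. Of 38 tested genes of the integrated stress response and the tRNA synthetases, 27 rose and 0 fell, with a median of 0.87, and the mean level of the list was 0.97, 0.81 and 0.92 at 100 nM. atf5b, which encodes a transcription factor of the response, had 2529, 2123 and 2632 normalised counts at 100 nM, against 928, 906 and 895 at 30 nM (1.41 ± 0.09, adjusted p = 2.92e-05). Its paralogue atf5a had 1586, 1466 and 1537 at 100 nM, against 707, 637 and 633 at 30 nM (1.21 ± 0.09, adjusted p = 5.47e-05). psat1, an enzyme gene of serine synthesis, had 1170, 968 and 1167 at 100 nM, against 480, 484 and 456 at 30 nM (1.21 ± 0.10, adjusted p = 8.85e-05). The groups were far apart in each. Control and 3 nM larvae averaged 815 and 970 for atf5b and 766 and 677 for atf5a, near the 30 nM levels, whereas psat1 averaged 633 and 624 there, with all 6 libraries above those at 30 nM.

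Other members, named after their values were seen, covered the sensors and the feedback of the pathway. sesn2, a gene of amino acid sensing, had 702, 538 and 565 normalised counts at 100 nM, against 166, 169 and 187 at 30 nM (1.78 ± 0.17, adjusted p = 0.000196). ppp1r15b, which encodes a subunit of the phosphatase that reverses the translation block, had 925, 498 and 820 at 100 nM, against 160, 155 and 188 at 30 nM (2.11 ± 0.20, adjusted p = 0.000202). ddit3, the gene of the factor CHOP, had 2714, 2505 and 2092 at 100 nM, against 1005, 1068 and 954 at 30 nM (1.26 ± 0.12, adjusted p = 0.000196). All 3 had groups that lay apart, as did trib3 (1.46) and asns (1.02), the gene of asparagine synthetase. The transcripts of atf4a and atf4b themselves rose by 0.77 each (adjusted p = 0.00127 and 0.000455). Among the synthetases eprs (0.94, adjusted p = 0.000318) and aars (0.81, adjusted p = 0.00201) were called, while sars had 4449, 3120 and 4590 at 100 nM, against 3501, 2790 and 3141 at 30 nM (0.35 ± 0.17, adjusted p = 0.254). The list had 23 to 28 higher members in the fits that left out a library, and 24 with equal totals.

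Chaperone genes split between families. Of 33 genes of the cytosolic and mitochondrial heat shock response, 11 rose and 2 fell, with a median of 0.27. The list's mean level, relative to the mean at 30 nM, was 0.47, 0.62 and 0.45 in the libraries at 100 nM. In the control libraries it was 0.28, 0.44 and 0.22, above 30 nM as well. hsp70.1 (ENSDARG00000029688), an inducible chaperone gene, had 269, 365 and 333 normalised counts at 100 nM, against 37, 65 and 60 at 30 nM (2.58 ± 0.31, adjusted p = 0.000597). Its near copies hsp70.2 (2.33), hsp70.3 (2.56) and hsp70l (2.55) rose with it, and since these copies share much of their sequence their single values are uncertain. hspa8, the constitutive member of the family, had 226402, 170483 and 202881 at 100 nM, against 188681, 147108 and 159733 at 30 nM (0.27 ± 0.23, adjusted p = 0.546), with overlapping groups. hsp90aa1.2 had 2336, 4193 and 2918 at 100 nM, against 904, 1475 and 1002 at 30 nM (1.47 ± 0.29, adjusted p = 0.00975). Its neighbour in the family hsp90aa1.1, the copy known for myosin folding in muscle, was lower instead, with 941, 853 and 768 at 100 nM, against 1482, 1593 and 1624 at 30 nM (−0.88 ± 0.15, adjusted p = 0.00428).

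The other falling member was hspb11, with 169, 183 and 138 normalised counts at 100 nM, against 468, 493 and 391 at 30 nM (−1.46 ± 0.13, adjusted p = 0.000111). It averaged 826 in the control and 1017 at 3 nM. The genes of the mitochondrial chaperones hspd1 (0.70, adjusted p = 0.00427) and hspa9 (0.71, adjusted p = 0.00531) rose, and both calls ended with equal totals (adjusted p = 0.0654 and 0.0562), where the list had 7 higher members in place of 11. Genes of the endoplasmic reticulum gave 4 rises and 2 falls among 31. dnajb9b, a co-chaperone gene, had 212, 214 and 189 at 100 nM, against 78, 77 and 94 at 30 nM (1.3 ± 0.15, adjusted p = 0.000452), and the factor genes atf6 (0.82) and xbp1 (0.74) of the unfolded protein response were called. hspa5, the main chaperone gene of that compartment, had 4180, 5582 and 5221 at 100 nM, against 3001, 3940 and 3154 at 30 nM (0.57 ± 0.17, adjusted p = 0.0598). That value passed without control replicate 2 (adjusted p = 0.0347) or 100 nM replicate 1 (0.0485).

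**Figure D4:**
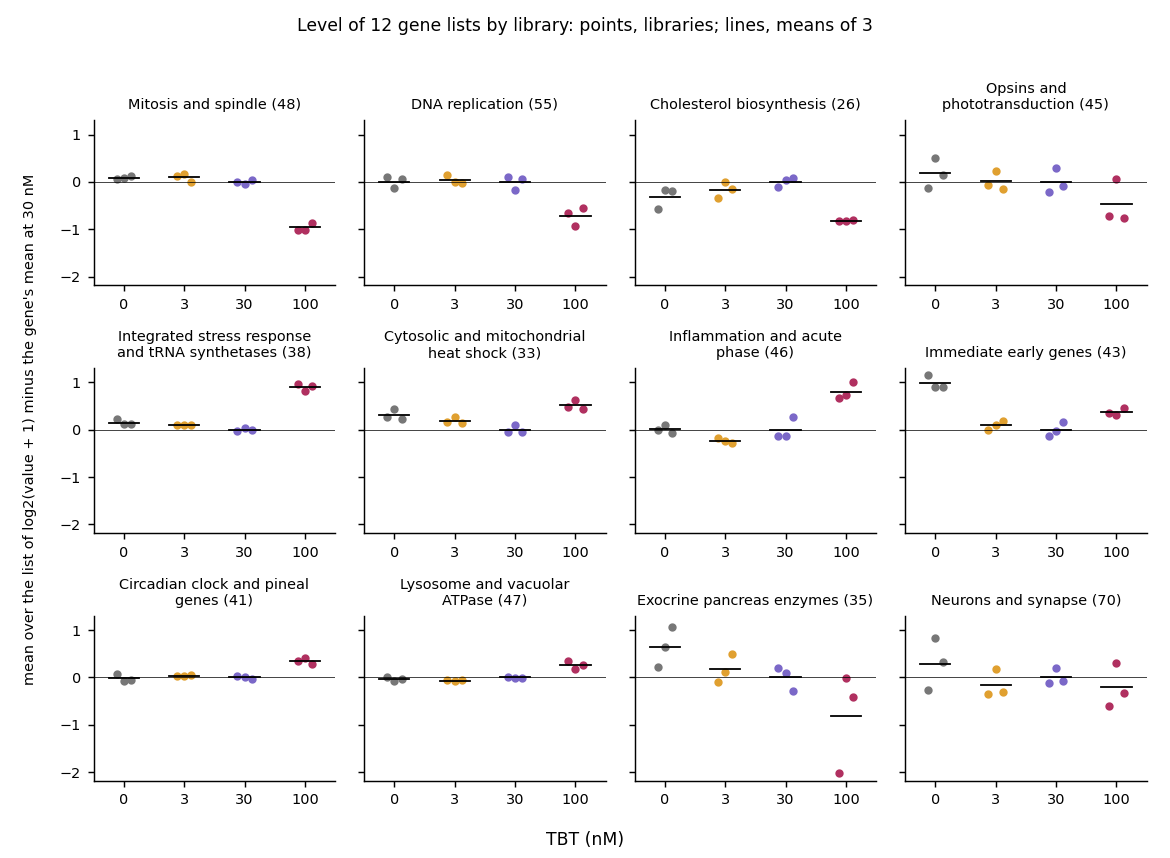
Mean level of 12 gene lists in each library (mean over the list of log2(value + 1) minus the gene's mean at 30 nM) against the TBT concentration in nM; points are libraries, lines the means of 3, and the number of genes is in brackets. Mitosis, DNA replication, cholesterol and integrated stress genes stand apart at 100 nM, with the 3 libraries between −1.01 and −0.86 for mitosis; opsins, pancreas enzymes and neuronal genes spread more between the 3 libraries at 100 nM than the other lists shown.

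Inflammation genes were higher at 100 nM. Of 46 tested, 17 rose and 2 fell, with a median of 0.64. il1b (ENSDARG00000098700), the gene of interleukin-1 beta, had 426, 301 and 644 normalised counts at 100 nM, against 27, 17 and 50 at 30 nM (3.89 ± 0.40, adjusted p = 0.000251). The groups did not overlap, as in 2066 of the 2069 called genes and as naming by the largest differences required. The control averaged 56. il6st, the receptor subunit gene gp130, had 4309, 4898 and 4018 at 100 nM, against 1994, 2112 and 2202 at 30 nM (1.06 ± 0.11, adjusted p = 0.000235). cxcl18b, a chemokine gene named after its values were seen, had 152, 199 and 238 at 100 nM, against 53, 47 and 37 at 30 nM (2.07 ± 0.22, adjusted p = 0.000328). The members that fell, named for that reason, were crp (−0.75, adjusted p = 0.0373) and hp, the haptoglobin gene (−0.56). The call of crp, a C-reactive protein gene with near copies, ended without 30 nM replicate 2 or 3, any library at 100 nM, control replicate 3 or 3 nM replicate 2 (adjusted p from 0.0556 to 0.141). That of hp (adjusted p = 0.0422) ended without any of the 6 libraries (0.0629 to 0.145), control replicate 3 or 3 nM replicate 1 or 2 (0.0543 to 0.0626). The 17 higher members became 11, 10 and 10 without 30 nM replicates 1, 2 and 3, and 8 and 9 without 100 nM replicates 1 and 3.

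Genes of matrix breakdown stood out among them. mmp13a (ENSDARG00000012395), a collagenase gene, had 2184, 910 and 1346 normalised counts at 100 nM, against 107, 112 and 159 at 30 nM (3.47 ± 0.33, adjusted p = 0.000195). mmp9, a gelatinase gene, had 2968, 2063 and 1507 at 100 nM, against 398, 285 and 426 at 30 nM (2.52 ± 0.29, adjusted p = 0.000435). timp2b, the gene of a metalloproteinase inhibitor, had 1569, 1346 and 1680 at 100 nM, against 365, 295 and 304 at 30 nM (2.25 ± 0.13, adjusted p = 1.25e-05). Protease and inhibitor genes thus were both higher, and timp2a followed (0.98 ± 0.08, adjusted p = 0.000101). Their groups did not overlap, as in nearly all called genes. Of 19 tested genes of this kind 7 rose and 1, mmp11a, fell (−0.90, adjusted p = 0.0241; 0.0643 and 0.102 without 30 nM replicates 1 and 3, 0.0663 without 100 nM replicate 2), and 4 rose without 30 nM replicate 1 or with equal totals. mmp9, mmp13a and timp2b are also in the neutrophil list, of which 9 of 22 rose. The defining neutrophil genes did not share the direction: mpx, myeloperoxidase, had 256, 296 and 299 at 100 nM, against 312, 318 and 407 at 30 nM (−0.28 ± 0.18, adjusted p = 0.41), and lyz, lysozyme, had 451, 481 and 472 at 100 nM, against 766, 958 and 830 at 30 nM (−0.86 ± 0.24, adjusted p = 0.0474). Leaving out any of the 6 compared libraries ended the call of lyz (adjusted p from 0.0815 to 0.153), as did leaving out control replicate 3 or any library at 3 nM (0.0633 to 0.0717). The 3 defining neutrophil markers summed to 1138, 1101 and 1218 at 100 nM, against 1526, 1741 and 1741 at 30 nM, and the part of cell number in the result was not tested. The neutrophil list had 5 and 4 higher members without 30 nM replicates 2 and 3 and 5 without 100 nM replicate 1.

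Among 43 immediate early genes 13 rose and 0 fell, with a median of 0.30. fosl1a (ENSDARG00000015355), an AP-1 factor gene, had 1772, 1093 and 1354 normalised counts at 100 nM, against 160, 145 and 153 at 30 nM (3.17 ± 0.31, adjusted p = 0.00021). atf3, a stress-induced factor gene, had 2821, 1806 and 2152 at 100 nM, against 627, 519 and 550 at 30 nM (1.98 ± 0.22, adjusted p = 0.000354). socs3b, which encodes a brake on cytokine signals, had 1545, 1658 and 1408 at 100 nM, against 762, 838 and 761 at 30 nM (0.96 ± 0.10, adjusted p = 0.000321). The mean level of this list was higher in the control (1.15, 0.91 and 0.90 in its 3 libraries, relative to the mean at 30 nM) than at 100 nM (0.36, 0.32 and 0.45). fosl1a averaged 791 in the control and 128 at 3 nM. The classical members egr1 (−0.08, adjusted p = 0.913) and fosab (−0.07, adjusted p = 0.958), chosen after their values were seen, did not pass; egr1 had 2589, 2376 and 2408 at 100 nM, against 2440, 2106 and 3379 at 30 nM, and averaged 11084 in the control.

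Complement and interferon genes held a few large rises. c7a, of the membrane attack complex, had 605, 579 and 572 normalised counts at 100 nM, against 236, 156 and 277 at 30 nM (1.43 ± 0.22, adjusted p = 0.00223). c6 (ENSDARG00000093052), of the same complex, had 71, 76 and 69 at 100 nM, against 15, 27 and 28 at 30 nM (1.63 ± 0.31, adjusted p = 0.00778). C4A had 625, 2725 and 1475 at 100 nM, against 194, 337 and 444 at 30 nM (2.14 ± 0.45, adjusted p = 0.014), with a wide spread at 100 nM. Its call ended without 30 nM replicate 1 (adjusted p = 0.0601) and in the fit of the 6 libraries (0.0634). Complement and coagulation gave 7 rises and 0 falls among 53 genes (13.2% called, against 9.23% of all genes), at a median of 0.02. The list had 2, 4 and 3 higher members without 30 nM replicates 1, 2 and 3, 3 without 100 nM replicate 3 and 4 without 3 nM replicate 1 or 3. isg15 (ENSDARG00000086374), a ubiquitin-like interferon target, had 198, 162 and 204 at 100 nM, against 26, 22 and 21 at 30 nM (2.98 ± 0.22, adjusted p = 5.98e-05). Of 30 interferon genes 4 rose and 1 fell (16.7% called, against 9.23% of all genes), at a median of −0.10. irf7 (1.19, adjusted p = 0.00818) and irf9 (0.56, adjusted p = 0.00905), both factors of the pathway, rose, and mxa, an antiviral GTPase gene, fell by 2.00 (adjusted p = 0.0186; 0.0532 and 0.0811 without 30 nM replicates 2 and 3, 0.0536 without 100 nM replicate 2). The rise of irf9 missed the threshold with equal totals (adjusted p = 0.0502).

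Genes of glutathione and the lysosome rose in part. Of 46 genes of oxidative stress, metal and iron handling, 8 rose and 1 fell, with a median of 0.14. slc7a11, the cystine importer gene, had 644, 346 and 540 normalised counts at 100 nM, against 106, 147 and 85 at 30 nM (2.16 ± 0.25, adjusted p = 0.000435). nfe2l2b, an NRF2 factor gene, had 1480, 1234 and 1427 at 100 nM, against 556, 574 and 555 at 30 nM (1.29 ± 0.13, adjusted p = 0.000239), and gss, glutathione synthetase, had 638, 474 and 580 at 100 nM, against 333, 329 and 326 at 30 nM (0.76 ± 0.12, adjusted p = 0.0022). Control and 3 nM larvae averaged 284 and 369 for nfe2l2b. The member that fell was gpx4a, a gene of the glutathione peroxidase that protects lipids, with 7855, 3742 and 7001 at 100 nM, against 20576, 14366 and 18608 at 30 nM (−1.58 ± 0.31, adjusted p = 0.00926). Among 47 lysosomal genes 15 rose and 1 fell, at a median of 0.26. ctsla, a cathepsin gene, had 37194, 35239 and 39824 at 100 nM, against 15934, 17492 and 19801 at 30 nM (1.08 ± 0.13, adjusted p = 0.00053). ctsd, another cathepsin gene (0.78, adjusted p = 0.000404), and mcoln1a, a lysosomal channel gene (0.70, adjusted p = 0.00123), followed. The higher lysosomal members numbered 8 without 30 nM replicate 3, 9 without 100 nM replicate 3 and 9 with equal totals.

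The list of apoptosis and growth arrest held 10 rises and 0 falls among 33 genes, with a median of 0.37. phlda3 had 410, 417 and 413 normalised counts at 100 nM, against 213, 199 and 218 at 30 nM (0.97 ± 0.10, adjusted p = 0.000262). casp9, an initiator caspase gene, had 831, 765 and 661 at 100 nM, against 455, 454 and 442 at 30 nM (0.73 ± 0.10, adjusted p = 0.00142). gadd45bb, a growth arrest gene, had 388, 412 and 336 at 100 nM, against 198, 166 and 202 at 30 nM (1.0 ± 0.17, adjusted p = 0.00412). The groups lay apart in these 3. gadd45bb averaged 415 in the control, above its level at 100 nM, and 237 at 3 nM. Control and 3 nM larvae averaged 165 and 198 for phlda3 and 356 and 389 for casp9. Other members, chosen after their values were seen, did not pass: the ubiquitin ligase gene mdm2 differed by 0.22 ± 0.09 (adjusted p = 0.15) and the cell cycle inhibitor gene cdkn1a by 0.38 ± 0.25 (adjusted p = 0.413).

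Some genes of the clock were higher. Of 41 tested, 12 rose and 0 fell, with a median of 0.30. nfil3, a repressor of the PAR factor targets, had 3296, 2577 and 2688 normalised counts at 100 nM, against 1478, 1534 and 1320 at 30 nM (0.98 ± 0.12, adjusted p = 0.000754). cry2, a cryptochrome gene, had 2201, 2349 and 1976 at 100 nM, against 1230, 1156 and 1139 at 30 nM (0.89 ± 0.11, adjusted p = 0.00054). nr1d4b, of the REV-ERB receptor family, had 162, 233 and 150 at 100 nM, against 63, 66 and 58 at 30 nM (1.50 ± 0.25, adjusted p = 0.00384). The libraries did not overlap in any of them. The list had 7 and 5 higher members without 30 nM replicates 1 and 3, and 5 with equal totals. No sampling hour is stated for the pools.

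Leptin genes were higher at 100 nM. lepb (ENSDARG00000045548), a gene of the satiety hormone leptin, had 62, 87 and 77 normalised counts at 100 nM and was listed at 0, 0 and 0 at 30 nM (adjusted p = 8.85e-05). lepa had 49, 31 and 23 at 100 nM, against 3, 5 and 2 at 30 nM (3.02 ± 0.45, adjusted p = 0.00197), close to the lower end of detection at 30 nM. Their receptor gene lepr had 1540, 1284 and 1457 at 100 nM, against 744, 679 and 693 at 30 nM (1.01 ± 0.12, adjusted p = 0.00053). Ligands and receptor were thus higher together. Of 25 genes of fasting, leptin and insulin-like signals 6 rose and 1 fell, and igfbp1a, an insulin-like growth factor binding protein gene, was among the rises (1.02, adjusted p = 0.00236). Of 22 genes of lipid droplets and adipocytes 6 rose and 0 fell, at a median of 0.39. cebpb, which encodes an adipocyte and stress factor, had 7012, 5235 and 5550 at 100 nM, against 1310, 1330 and 1546 at 30 nM (2.08 ± 0.25, adjusted p = 0.00059). The gene listed as PLIN5, which the gene name table calls plin3, a lipid droplet coat gene, had 996, 1029 and 933 at 100 nM, against 450, 529 and 491 at 30 nM (1.01 ± 0.10, adjusted p = 0.000235).

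The receptors that TBT is known to bind differed little between the concentrations. pparg had 351, 486 and 392 normalised counts at 100 nM, against 280, 319 and 353 at 30 nM (0.36 ± 0.14, adjusted p = 0.154), and its groups overlapped. rxraa had 577, 536 and 604 at 100 nM, against 690, 704 and 694 at 30 nM (−0.28 ± 0.08, adjusted p = 0.0469). That call is at the edge of the threshold: it ended without any of the 6 compared libraries (adjusted p from 0.058 to 0.138) and without control replicate 3 or any library at 3 nM (0.0698 to 0.0751). The other RXR genes did not pass, with differences of 0.07 for rxrab (adjusted p = 0.915), 0.14 for rxrba (0.32), 0.14 for rxrbb (0.523), −0.41 for rxrga (0.403) and 0.15 for rxrgb (0.512). nr1h3, the liver X receptor gene, had 1486, 1832 and 1589 at 100 nM, against 1309, 1454 and 1509 at 30 nM (0.20 ± 0.10, adjusted p = 0.275). Of 27 receptor and partner genes 3 rose, among them thraa (0.67, adjusted p = 0.00718) and ppargc1b (0.39, 0.0213), and 1 fell, rxraa (14.8% called, against 9.23% of all genes). With equal totals 0 rose, and the adjusted p values were 0.0682 for thraa and 0.267 for ppargc1b. The call of ppargc1b also ended without any of the 30 nM libraries (adjusted p from 0.0552 to 0.0793) or 100 nM replicate 1 or 2 (0.0628 and 0.0537).

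The list that joined receptor targets with fatty acid synthesis genes had calls in both directions, and the members of it named here rose. Of 26 liver X receptor targets and fatty acid synthesis genes 5 rose and 3 fell, at a median of −0.06, and 3 rose in 8 of the fits that left out a library, among them those without each of the 30 nM libraries. The lower members numbered 0 without 30 nM replicate 2 or 3 or 100 nM replicate 1, and 1 without 100 nM replicate 3. abca1a, a cholesterol exporter gene, had 13243, 16608 and 15694 normalised counts at 100 nM, against 7929, 7934 and 7772 at 30 nM (0.94 ± 0.12, adjusted p = 0.000754). pltp, a phospholipid transfer gene, had 1623, 3009 and 2344 at 100 nM, against 858, 949 and 1262 at 30 nM (1.16 ± 0.23, adjusted p = 0.0102). scd, the stearoyl-CoA desaturase gene, had 290, 364 and 267 at 100 nM, against 151, 201 and 112 at 30 nM (1.01 ± 0.21, adjusted p = 0.0123), and missed the threshold in the fit of the 6 libraries (adjusted p = 0.0519). scd and abca1a had already been higher at 30 nM than below, with scd means of 18.3 and 28.3 in control and 3 nM larvae. Fatty acid oxidation gave 6 falls and 0 rises among 28 genes, at a median of −0.25. cpt2, of the carnitine shuttle, had 497, 546 and 620 at 100 nM, against 794, 982 and 856 at 30 nM (−0.66 ± 0.12, adjusted p = 0.00492), and the oxidation enzyme genes eci1 (−0.64, adjusted p = 0.00268) and acads (−0.56, adjusted p = 0.00273) fell as well.

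Hormone and xenobiotic lists held 2 to 5 calls each, up to 15.6% of their genes against 9.23% of all. cyp26a1, the retinoic acid hydroxylase gene, had 99, 123 and 118 normalised counts at 100 nM, against 134, 128 and 117 at 30 nM (−0.16 ± 0.13, adjusted p = 0.549). cyp19a1b, brain aromatase, had 11, 21 and 10 at 100 nM, against 7, 6 and 15 at 30 nM (0.57 ± 0.43, adjusted p = 0.5). Both overlapped between the groups. Of 32 retinoid and vitamin D genes 5 fell and 0 rose, a count that went to 0 in the fit of the 6 libraries and without 30 nM replicate 1, 30 nM replicate 3 or 100 nM replicate 1; it was 1 without 30 nM replicate 2 or 100 nM replicate 3, 2 without 3 nM replicate 1 or 3, and 3 without control replicate 3. Those with the lowest p were bco2b (−1.91, adjusted p = 0.0206), cyp27b1 (−1.37, 0.0216) and rdh1 (−0.77, 0.0318), and each lost its call without several single libraries. Their adjusted p values were 0.0803, 0.0664 and 0.0548 without 30 nM replicate 1, 0.0762, 0.0821 and 0.107 without 30 nM replicate 3, and 0.0726, 0.0779 and 0.113 without 100 nM replicate 1. Of 34 aryl hydrocarbon receptor and drug metabolism genes 1 rose and 3 fell. cyp1b1, a dioxin-inducible oxidase gene, had 525, 345 and 516 at 100 nM, against 210, 158 and 175 at 30 nM (1.33 ± 0.18, adjusted p = 0.00127), while cyp2ad3 (−0.57, adjusted p = 0.00375) and the sulfotransferase gene sult1st3 (−1.37, 0.0324) fell, the last without a call when any of the 6 libraries other than 100 nM replicate 2 was left out (adjusted p from 0.0505 to 0.116), or control replicate 3 or 3 nM replicate 1 or 3 (0.0515 to 0.0523). In the glucocorticoid list 2 of 27 rose and 1 fell. The kinase gene sgk1 had 5781, 7634 and 5840 at 100 nM, against 2269, 3502 and 2691 at 30 nM (1.2 ± 0.17, adjusted p = 0.00156). tsc22d3 rose by 0.51 (adjusted p = 0.0167, but 0.11 with equal totals and 0.0712 without 30 nM replicate 1). The member that fell, hsd11b1la, differed by −0.34 (adjusted p = 0.0272, but 0.0583 to 0.111 without each 30 nM library or 100 nM replicate 2 or 3). Among 15 thyroid genes dio1, a deiodinase gene, fell (−0.90 ± 0.16, adjusted p = 0.00528) and the receptor gene thraa rose. The lists of lipoproteins (1 higher and 1 lower of 28) and bile acids (1 higher of 21) had smaller shares.

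Photoreceptor genes were lower at 100 nM in 14 of 45 cases and higher in 2, with a median of −0.52, and the 3 libraries at 100 nM differed among themselves. The mean level of the list was −0.73 and −0.75 in replicates 1 and 3, and 0.07 in replicate 2. Replicate 2 was also the highest library for this list in the control (0.51), at 3 nM (0.24) and at 30 nM (0.29). opn1mw1, a green cone opsin gene, had 2529, 3802 and 2644 normalised counts at 100 nM, against 8243, 12356 and 10498 at 30 nM (−1.80 ± 0.24, adjusted p = 0.00117). guca1b, an activator gene of the guanylate cyclase, had 70, 64 and 61 at 100 nM, against 156, 162 and 135 at 30 nM (−1.2 ± 0.17, adjusted p = 0.00132). sagb, an arrestin gene, had 2132, 2510 and 2164 at 100 nM, against 3859, 4302 and 3815 at 30 nM (−0.82 ± 0.10, adjusted p = 0.000691). These 3 kept apart from the 30 nM libraries in replicate 2 as well. Rhodopsin, rho, named after its values were seen, had 15378, 33505 and 16412 at 100 nM, against 30050, 43267 and 30991 at 30 nM (−0.75 ± 0.31, adjusted p = 0.168), with replicate 2 inside the 30 nM range, and without that replicate its adjusted p was 0.0239.

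The members that rose were another green opsin gene, opn1mw2, with 1484, 2689 and 1485 normalised counts at 100 nM, against 580, 917 and 816 at 30 nM (1.26 ± 0.26, adjusted p = 0.0136; 0.0583 without 30 nM replicate 1), and guca1a, with 123, 176 and 122 at 100 nM, against 46, 44 and 28 at 30 nM (1.82 ± 0.28, adjusted p = 0.00249). The 2 green opsin genes thus went opposite ways. The red opsin gene opn1lw1 had 1363, 1957 and 1199 at 100 nM, against 1331, 1245 and 1301 at 30 nM (0.19 ± 0.24, adjusted p = 0.72), after means of 83 in the control and 200 at 3 nM. Its groups at 30 and 100 nM overlapped. Opsin copies share sequence, so single values are uncertain. Without 30 nM replicates 2 and 3 the list had 7 and 8 lower members, and 7 without 100 nM replicate 1 or replicate 3.

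**Figure D5:**
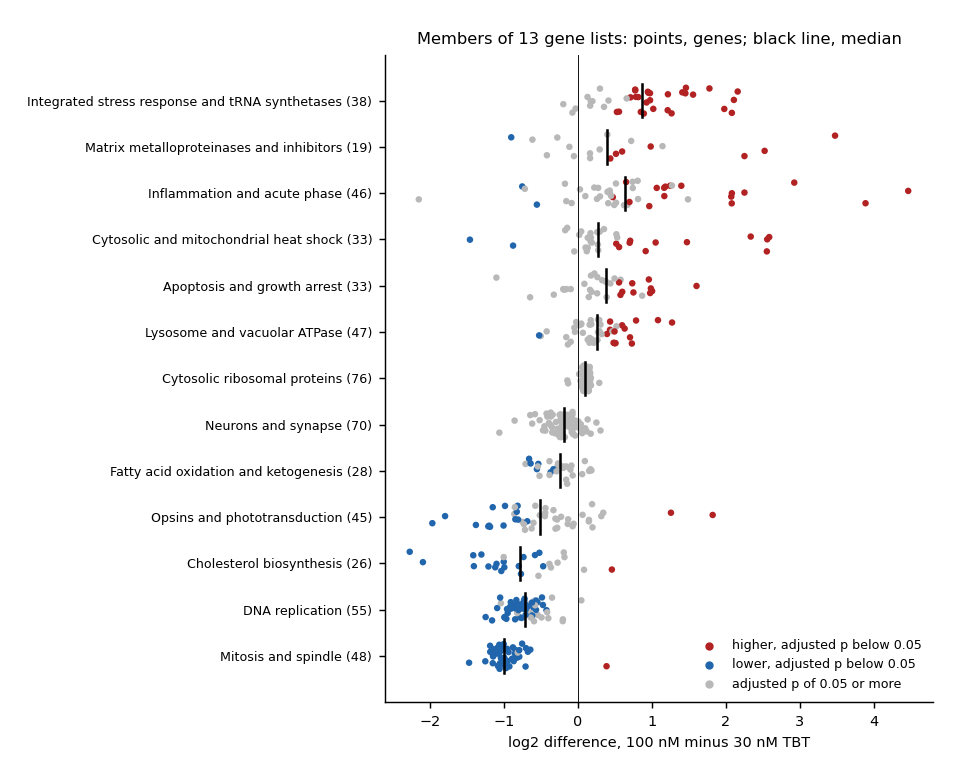
Each point is a tested gene of 1 of 13 lists (number of tested genes in brackets), placed by its log2 difference, 100 nM minus 30 nM; red points were higher and blue points lower at an adjusted p below 0.05, and black lines are medians. Mitosis genes lie around −1.0 with 1 exception at 0.39, integrated stress genes around 0.87, and ribosomal proteins close to 0.

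Genes of the digestive tissues had negative medians. Of 35 exocrine pancreas genes 5 fell (14.3%, against 3.95% of all genes) and 0 rose, at a median of −0.72, and the list's level at 100 nM was −2.02, −0.01 and −0.41. SYCN (ENSDARG00000090899), a zymogen granule gene, had 42, 143 and 112 normalised counts at 100 nM, against 480, 335 and 342 at 30 nM (−2.10 ± 0.41, adjusted p = 0.00858). Its relative sycn.2 (−1.67, adjusted p = 0.0129) and the elastase gene CELA1 (−1.48, 0.027) fell too. CELA1 lost its call without any of the 3 libraries at 30 nM or 100 nM replicate 1 or 3 (adjusted p from 0.0563 to 0.0958), and sycn.2 without 30 nM replicate 1 (0.0547). The summed counts of the 6 defining pancreas markers were 9606, 89487 and 46793 at 100 nM, against 62299, 66728 and 45971 at 30 nM, so that 1 library at 100 nM was far lower than the rest and the groups overlapped. Leaving out 30 nM replicates 1, 2 and 3 left 1, 2 and 3 lower members, leaving out 100 nM replicate 1 or 3 left 2, and leaving out 100 nM replicate 2 gave 10.

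Enterocyte genes were lower in 40 of 41 cases by sign, at a median of −0.85, against −0.01 over all tested genes. Of them 4 were called lower (9.76%, against 3.95% of all genes) and 0 higher. The genes were read in the same pools, so their signs are not independent of each other. enpp7.1, the gene of a sphingomyelinase of the gut, had 61, 67 and 69 normalised counts at 100 nM, against 238, 309 and 401 at 30 nM (−2.22 ± 0.26, adjusted p = 0.00054). slc15a1a, a peptide transporter gene, had 30, 66 and 17 at 100 nM, against 131, 141 and 147 at 30 nM (−2.07 ± 0.43, adjusted p = 0.0133; 0.0524 without 30 nM replicate 3), and mep1a.1, a brush border protease gene, was lower by the same test (−1.41, adjusted p = 0.0247; 0.0505 to 0.091 without each of the 30 nM libraries, 0.0753 and 0.0787 without 100 nM replicates 1 and 3). The list level at 100 nM was −1.23, −0.09 and −1.15, with replicate 2 again near the 30 nM mean. Replicate 2 was also the highest library for this list in the control (0.93), at 3 nM (0.39) and at 30 nM (0.30). Leaving out 100 nM replicate 2 gave 13 lower members and leaving out control replicate 2 gave 9. Leaving out 30 nM replicates 1, 2 and 3 gave 2, 2 and 1, and 100 nM replicate 1 or 3 gave 2.

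Liver genes gave 1 rise and 4 falls among 43 (11.6% called, against 9.23% of all genes). The rise, hpx (ENSDARG00000012609), the gene of the haem scavenger hemopexin, had the largest difference among the named genes detected in all 6 libraries, with 64, 198 and 92 normalised counts at 100 nM, against 3, 3 and 6 at 30 nM (4.46 ± 0.51, adjusted p = 0.000411). The level of hpx at 30 nM was close to the lower end of detection, so the size of its difference depends on the added 1. For hpx the control libraries had 5, 15 and 11 and those at 3 nM 10, 22 and 10, most of them above the values at 30 nM. ahsg1, a fetuin gene, had 13, 15 and 18 at 100 nM, against 48, 112 and 59 at 30 nM (−2.10 ± 0.38, adjusted p = 0.00603), and tdo2a, a tryptophan oxygenase gene, had 1111, 1251 and 1115 at 100 nM, against 1722, 2347 and 1938 at 30 nM (−0.78 ± 0.11, adjusted p = 0.00165). Leaving out 30 nM replicate 2 or 3, 100 nM replicate 1 or 3, control replicate 3 or 3 nM replicate 1 or 2 gave 2 lower members in place of 4. The 4 defining hepatocyte markers summed to 39405, 65569 and 67723 at 100 nM, against 40712, 65686 and 69956 at 30 nM, with overlapping groups.

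Blood genes included a rise of similar size. hbz (ENSDARG00000045142), a globin gene that the gene name table calls hbae5, had 1252, 914 and 892 normalised counts at 100 nM, against 37, 55 and 81 at 30 nM (4.17 ± 0.64, adjusted p = 0.00233). hbbe2, an embryonic beta globin gene, had 10977, 6708 and 10962 at 100 nM, against 4125, 3234 and 4154 at 30 nM (1.29 ± 0.29, adjusted p = 0.0192), and hmbsb, a haem synthesis gene, differed by 0.65 (adjusted p = 0.0261). Globin copies share sequence and are uncertain. The calls of hbbe2 and hmbsb ended without 30 nM replicate 1 (adjusted p = 0.053 and 0.0989), 30 nM replicate 2 (0.0769 and 0.0604), 100 nM replicate 1 (0.0705 and 0.091) or 100 nM replicate 3 (0.0689 and 0.0707), and that of hbbe2 without 30 nM replicate 3 (0.0548). Of 33 erythrocyte genes 5 rose and 0 fell (15.2% called, against 9.23% of all genes). Leaving out 30 nM replicates 1, 2 and 3 left 1, 1 and 3 higher members, and leaving out 100 nM replicates 1 and 3 left 2 and 1. alas2, the haem enzyme gene of red cells, had 616, 673 and 1167 at 100 nM, against 383, 493 and 572 at 30 nM (0.72 ± 0.26, adjusted p = 0.118).

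Lymphoid genes were called lower in 3 of 23 cases, a share of 13% against 3.95% of all genes, and macrophage genes in both directions. rag2, the recombinase gene of developing lymphocytes, had 31, 26 and 19 normalised counts at 100 nM, against 54, 62 and 65 at 30 nM (−1.24 ± 0.20, adjusted p = 0.00326). lck (−0.94, adjusted p = 0.0274) and runx3 (−0.41, 0.0235) fell as well among 23 thymus and lymphocyte genes, with 0 rises. Their calls ended in the fit of the 6 libraries (adjusted p = 0.117 and 0.0961) and without 30 nM replicate 2 (0.102 and 0.0536) or 100 nM replicate 1 (0.0957 and 0.0817), and that of runx3 without 30 nM replicate 1 (0.0962) or 3 (0.0639). Of 29 macrophage genes 2 rose and 2 fell (13.8% called, against 9.23% of all genes): tspan36 had 5661, 3996 and 4997 at 100 nM, against 1996, 1911 and 2105 at 30 nM (1.27 ± 0.14, adjusted p = 0.000327), mfap4 differed by 0.96 (0.0137; 0.0552 without 30 nM replicate 2) and lgals3bpb by −1.30 (0.0215; 0.0604 to 0.083 without each 30 nM library). The genes tspan36 and lgals3bpb are not among the 4 defining macrophage markers, of which 1, mfap4, was called higher and 1 lower. Which cells of the whole larva carried tspan36 was not tested, so its rise cannot be assigned to macrophages. The marker mpeg1.1 had 362, 287 and 356 at 100 nM, against 613, 443 and 479 at 30 nM (−0.60 ± 0.19, adjusted p = 0.0781), and passed without control replicate 1 (0.0345) or 2 (0.0265) and with equal totals (0.0184).

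In the vessels lyve1a (ENSDARG00000075833), a hyaluronan receptor gene of the family that marks lymphatic endothelium, had 644, 637 and 640 normalised counts at 100 nM, against 77, 78 and 82 at 30 nM (3.00 ± 0.14, adjusted p = 3.48e-06). The 3 libraries of each group nearly coincided, and the means were 59 in the control and 82 at 3 nM. Of 35 endothelial genes 2 rose, lyve1a and the factor gene sox7 (0.52, adjusted p = 0.0208), and 0 fell, at a median of 0.17. That is 5.71% called, against 9.23% of all genes. The call of sox7 ended without 30 nM replicate 1 or 2 or 100 nM replicate 1 (adjusted p = 0.0738, 0.0851 and 0.0779).

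Skeletal and supporting tissues showed single genes rather than whole lists. col10a1a, a collagen gene of hypertrophic cartilage and bone, had 2921, 2878 and 3472 normalised counts at 100 nM, against 6165, 7398 and 7704 at 30 nM (−1.2 ± 0.22, adjusted p = 0.00697). The link protein genes hapln1a (−0.85, adjusted p = 0.01) and hapln1b (−0.72, 0.00697) fell with it, and of 66 genes of collagen, cartilage and bone 6 fell and 1 rose; 3 fell without any of the 30 nM libraries, and 11 without control replicate 2. In muscle 3 of 67 genes rose and 5 fell. The collagen and muscle lists had 10.6% and 11.9% of their genes called, against 9.23% of all genes. Myoglobin, mb, had 7056, 6255 and 7501 at 100 nM, against 2659, 3539 and 3080 at 30 nM (1.17 ± 0.12, adjusted p = 0.00021), whereas the slow muscle genes mybpc1 (−1.05, adjusted p = 0.00435) and tnnt1 (−0.90, 0.00616) fell. Without 30 nM replicate 2 or 3 the muscle list had 3 lower members.

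Among 35 glial genes 1 rose and 3 fell (11.4% called, against 9.23% of all genes). glula, the glutamine synthetase gene, had 26227, 26708 and 26427 normalised counts at 100 nM, against 9998, 12643 and 11659 at 30 nM (1.22 ± 0.14, adjusted p = 0.000404), and the myelin gene mbpa differed by −0.62 (0.0153; 0.0629 and 0.0529 without 30 nM replicates 1 and 2), as did rlbp1b, of retinal glia, by −0.56 (0.00572). In the skin 3 of 48 genes rose and 1 fell (8.33% called, against 9.23% of all genes). The junction genes dspa (0.78, adjusted p = 0.00516) and cldnb (1.46, 0.0119; 0.053 without 30 nM replicate 2) were higher, and anxa1c was lower (−1.75, 0.0255), without a call when 30 nM replicate 1 or 3 or 100 nM replicate 2 was left out (0.0979, 0.0629 and 0.0636).

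Ionocyte genes were called higher in 6 of 39 cases and lower in 2 (20.5% called, against 9.23% of all genes). The 3 defining ionocyte markers summed to 6396, 3692 and 6203 at 100 nM, against 7699, 5880 and 6028 at 30 nM, with overlapping groups. Of these markers 1, atp1a1a.5, was called higher and 0 lower. rhcgl1, an ammonium transporter gene, had 690, 210 and 230 normalised counts at 100 nM, against 2176, 1578 and 1401 at 30 nM (−2.39 ± 0.50, adjusted p = 0.0137). Its means were 4421 in the control and 4709 at 3 nM, and the call ended without 30 nM replicate 1 (adjusted p = 0.0578) or 100 nM replicate 3 (0.0529). The sodium pump genes atp1a1a.1 (0.63, adjusted p = 0.00614) and atp1a1a.5 (0.75, 0.00971) rose; the first missed the threshold with equal totals (0.0781) and the second without 30 nM replicate 3 (0.0503). Without 30 nM replicates 2 and 3 and 100 nM replicates 1 and 3 the higher members numbered 2, 1, 2 and 2, and with equal totals 2. Lens crystallins gave 1 fall among 50, ribosome biogenesis 1 fall among 62 and oxidative phosphorylation 2 rises among 74. Those 2, both subunit genes of the respiratory chain, were cox4i2 (0.81, adjusted p = 0.000501) and ndufa4 (0.65, 0.0091; 0.053 with equal totals), and the median of that list was −0.01.

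The remaining genes with the largest differences belonged to no list. arf4b (ENSDARG00000100339), of a family of small GTPases of the Golgi, had 532, 369 and 476 normalised counts at 100 nM, against 38, 42 and 46 at 30 nM (3.41 ± 0.36, adjusted p = 0.000284). smtlb (ENSDARG00000017251), the gene of a pituitary somatolactin, had 131, 129 and 162 at 100 nM, against 17, 19 and 11 at 30 nM (3.11 ± 0.39, adjusted p = 0.000683), with means of 2.67 in the control and 7.33 at 3 nM. In both genes the groups were far apart, and a lack of overlap was a condition for naming them. The largest fall among the named genes was that of fut9d (ENSDARG00000028098), a fucosyltransferase gene, with 563, 144 and 285 at 100 nM, against 3321, 2200 and 2077 at 30 nM (−3.11 ± 0.52, adjusted p = 0.00373). vwa10.1 (ENSDARG00000077874) had 68, 34 and 40 at 100 nM, against 399, 246 and 229 at 30 nM (−2.61 ± 0.40, adjusted p = 0.00245), and fhl5 (ENSDARG00000014805), of the LIM domain family, had 53, 55 and 75 at 100 nM, against 247, 394 and 277 at 30 nM (−2.30 ± 0.25, adjusted p = 0.000356).

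tppp3 (ENSDARG00000030463), a tubulin polymerization gene, had 112, 85 and 95 normalised counts at 100 nM, against 349, 501 and 366 at 30 nM (−2.04 ± 0.17, adjusted p = 0.000101). The gene listed as URGCP (ENSDARG00000102364) had 214, 46 and 167 at 100 nM, against 685, 787 and 726 at 30 nM (−2.62 ± 0.59, adjusted p = 0.0178), and mslna (ENSDARG00000098949) had 54, 18 and 23 at 100 nM, against 278, 104 and 114 at 30 nM (−2.36 ± 0.50, adjusted p = 0.0142). A lack of overlap between the groups was a condition for naming these genes. The call of URGCP ended without any of the 3 libraries at 30 nM (adjusted p = 0.0548, 0.0617 and 0.0618) and that of mslna without 30 nM replicate 1 (0.0567) or 100 nM replicate 3 (0.0508).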

How the data were processed

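Poly(A) RNA of pools of 10 whole larvae (500 ng input, 15 PCR cycles, paired reads of 76 nt) was sequenced, per the labels' protocols. The deposited values are a score: the authors' normalised counts per gene, which are whole numbers. In 6 of the 12 libraries their steps were those of counts divided by 1 size factor, and in the others the steps resolved no factor. Per the submitters' processing notes, the build was GRCz10 and the tools included DESeq2 1.10.1, RSEM 1.2.28, STAR 2.5.1b and CASAVA, with no role given for each. Because size factors could be read from the values in 6 of the 12 libraries, 2 of them among the 6 compared, no count model was fitted, which differs from a test on raw counts. Libraries were grouped by their titles. Depth was thus unknown for 4 of the 6 compared libraries, and precision rests on the spread between pools.

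From these values log2(value + 1) was computed. A gene was kept when 3 or more of the 12 libraries reached 10, which left 22404 of 26816. A model of 4 group means over all 12 libraries was fitted with limma 3.58.1 in R 4.3.3 with a variance trend, and 100 nM minus 30 nM was tested two-sided, with Benjamini-Hochberg adjustment at 0.05. The fit was tested on simulated data with noise drawn independently for each library, so deviations shared between libraries were not part of that test. Differences are on the log2(value + 1) scale, which understates changes of low genes, and are given with the standard error; adjusted p-values are from limma throughout.

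The members and the 46 lists were chosen with earlier results of these data known, so no list is independent evidence. A gene was named if it was among the 12 largest differences each way (called genes that have a symbol, average 100 or more in the higher group and do not overlap between groups), among the 3 lowest p of a list with 3 or more calls, or one of 10 fixed receptor genes and targets; others were chosen after their values were seen. Of the 26816 gene IDs, 24005 were in the gene name table, and 22 listed symbols were matched through RefSeq synonyms. Alternatives were equal totals, quantile normalisation, other pseudocounts and filters, the 6 libraries alone, a replicate block, no variance trend, robust variances, and leaving out each library. No coordinates or sequences are given, since no genome of the files' build was used here. A few genes are not reported here.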

Additional observations from a re-analysis of the deposited data

How the results depend on the processing

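The total of 2069 called genes (1185 higher, 884 lower) fell to 1179 (706 higher, 473 lower) when the spread came from the 6 compared libraries alone, and stood at 4540 (2469 higher, 2071 lower) with a replicate block. Replicate numbers were not taken to pair the pools. Deviations of same-numbered libraries at 100 and 30 nM correlated at 0.4352, 0.4213 and 0.0469, and 100 nM replicate 3 correlated best with 30 nM replicate 1. Across all groups, replicates 1 correlated positively with each other, as did replicates 2 (0.2925 to 0.5775). Replicates 1 and 2 of different groups correlated negatively (−0.6032 to −0.2926). These replicates thus shared part of their deviations across groups, and the cause was not tested. With the block, 19 enterocyte, 23 photoreceptor and 8 neuronal genes were called lower, and cytosolic ribosomal proteins still had 0 calls. With equal totals 643 genes were called higher. Leaving out 1 library gave 1041 to 2492 calls, 640 to 1379 higher and 401 to 1122 lower. The lowest counts came without 30 nM replicate 3; the cause was not tested. Other pseudocounts, filters, quantile normalisation, robust variances and no variance trend kept all these totals within 1.5 times. No called gene named by the rule changed its direction under these settings. Of 116 called genes named by the rule, 84 were called under every setting other than the block, and 32 lost the call in 1 or more. Calls were lost most often without a 30 nM library (22, 18 and 17 genes without replicates 1, 2 and 3). Counts per list stayed within 1.5 times in 1642 cases and moved further in 382. With 3 pools a group, and depth readable in only 2 of the 6 libraries, a missed threshold does not show equal levels, and low genes carry the least precision.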

Other observations

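Some of the larger differences outside the lists were chosen after their values were seen. stm, the starmaker gene of the otolith matrix, had 40174, 22714 and 32805 normalised counts at 100 nM, against 8008, 9259 and 7803 at 30 nM (log2 difference 1.90 ± 0.21, limma adjusted p = 0.000411). The groups were far apart, and the control and 3 nM means were 5734 and 6526.

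Vascular and peptide hormone genes were among them. adm2a, an adrenomedullin family gene, had 400, 408 and 419 normalised counts at 100 nM, against 56, 91 and 76 at 30 nM (2.47 ± 0.21, limma adjusted p = 0.000105). esm1, an endothelial proteoglycan gene, had 221, 345 and 199 at 100 nM, against 51, 60 and 44 at 30 nM (2.25 ± 0.24, limma adjusted p = 0.000318). angpt2a, an angiopoietin gene, had 98, 122 and 113 at 100 nM, against 27, 25 and 27 at 30 nM (2.03 ± 0.36, limma adjusted p = 0.00512). None of the 3 overlapped between the groups. gtpbp1, a GTP-binding protein gene, had 6195, 3304 and 5569 at 100 nM, against 893, 945 and 864 at 30 nM (2.43 ± 0.19, limma adjusted p = 7.48e-05), close to the control mean of 991.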
